A study of Arabidopsis thaliana with 14 samples.

Results

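The JAZ proteins (JASMONATE ZIM-DOMAIN) are the repressors that hold jasmonate responses in check in Arabidopsis thaliana, and the transcripts of 10 of their genes are described here: JAZ1, JAZ2, JAZ3, JAZ5, JAZ6, JAZ7, JAZ8, JAZ9, JAZ10 and JAZ12. They were chosen by gene identifier from a list of the family, by a rule that used no measured value. The choice was made with earlier results of these data known. The members make up 10 of the 33602 genes listed in each count table. All 10 passed the filter on low counts, which kept 19666 genes for testing. The family members JAZ4, JAZ11 and JAZ13 were not on the list.

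RNA was sequenced from whole rosettes of 3-week-old plants in 14 libraries, each from a pool of 5 rosettes. N2102362 (n = 4) and N2102363 (n = 4) are independent lines with estradiol-inducible overexpression of WRKY75, a transcription factor of the WRKY family. Their spray held estradiol at 50 µM and the wetting agent Silwet-L77 at 0.001%. Wild-type Col-0 received the same estradiol spray (n = 3) or water with the same wetting agent (n = 3), and all rosettes were taken 3 h after the spray, so that every group shared the spraying itself. The comparison of each line with estradiol-sprayed Col-0 asked what induced WRKY75 does to gene expression, and that of the Col-0 groups asked what estradiol does without the transgene. Plants of the lines that had received no estradiol were not analysed here, so a difference between the lines and Col-0 that was there before the spray was not measured. The labels call the libraries biological replicates, so each p-value measures the spread between pools of rosettes. Replicate 4 exists in the lines alone, and its file names carry a date that no others carry. In RNA from whole rosettes, fewer cells of a type and less RNA per cell cannot be told apart.

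A JAZ protein binds transcription factors such as MYC2 and recruits the co-repressor TOPLESS (TPL), in most cases through the adaptor NINJA. When the hormone jasmonoyl-isoleucine is made, after wounding, herbivory or touch, it joins JAZ proteins to the F-box protein COI1, and the JAZ proteins are ubiquitinated and degraded, which frees MYC2. MYC2 then switches on most JAZ genes by way of G-box elements in their promoters, so JAZ transcripts rise within minutes to hours of a jasmonate signal and restore repression. In rosette leaves, JAZ transcripts are for that reason a common marker of recent jasmonate signalling.

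Total counts lay between 20456036 and 22605970 per library. WRKY75 itself stood at 29.6, 30.7, 28.2 and 82.1 CPM in N2102362 and 76.8, 146, 116 and 167 CPM in N2102363, against 2.69, 0.627 and 1.18 CPM in Col-0 with estradiol and 1.25, 0.428 and 0.946 CPM in Col-0 with water, where CPM is the count relative to the TMM-adjusted library size. It was called in the mean of both lines, with a log2 fold change of 5.64 ± 0.57 (SE) and an adjusted p of 0.000792 in edgeR's quasi-likelihood test with Benjamini-Hochberg adjustment over all 19666 genes, the test behind every adjusted p given here. Transcripts of the endogenous and of the induced WRKY75 are counted together. The labelled tissue was checked against markers. The 6 rosette leaf markers summed to 18501 to 36568 CPM in N2102362, 20417 to 31990 CPM in N2102363, 15676 to 23489 CPM in Col-0 with estradiol and 16004 to 23187 CPM in Col-0 with water. The highest sum in each line was that of replicate 4, and the other libraries ran from 18501 to 19852 CPM in N2102362 and from 20417 to 24360 CPM in N2102363. The root markers CASP1, RHD6 and PHT1;1 had 0 to 5 counts in every library, and the seed marker LEC1 had 0. Of the 3 seed markers CRA1, OLEO1 and LEC1, 0 passed the filter. PYK10, the only root marker to pass the filter, stood at 29.6 to 65.7 CPM in N2102362, 35.1 to 67.1 CPM in N2102363, 20.3 to 37.9 CPM in Col-0 with estradiol and 24.1 to 36.3 CPM in Col-0 with water. The 3 of 5 floral markers that passed it, none of them AP1 or AP3, summed to 1.26 to 2.78 CPM in N2102362, 2.13 to 4.52 CPM in N2102363, 1.08 to 1.82 CPM in Col-0 with estradiol and 1.42 to 1.80 CPM in Col-0 with water, and their part in the JAZ values was not tested.

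The promoters of the JAZ genes were read from the RefSeq TAIR10.1 genome, in the 250 bases before each RefSeq gene start, and searched on both strands for the G-box CACGTG, the element MYC2 binds, for the related form AACGTG, and for the W-box core TTGAC, which WRKY factors bind. CACGTG was found before JAZ2, JAZ3, JAZ7 and JAZ8, 4 of the 10, and before 6.49% of 27443 genes. AACGTG was found before JAZ3, JAZ5, JAZ6 and JAZ12, again 4 of the 10, and before 7.54% of those genes. Either form was found before 7 of the 10 and before 13.3% of all genes. The W-box core stood before 5 of the 10, JAZ1, JAZ6, JAZ7, JAZ8 and JAZ12, and before 44.9% of all genes, a share close to that of the JAZ genes. JAZ1, JAZ9 and JAZ10 held neither G-box form in this window. CACGTG and AACGTG differ in their first letter, so the same bases cannot match both on one strand, and a match is a description of the letters, not of binding. RefSeq gene starts often lie outside the gene models that were counted, so these windows do not all end where the counted models begin. The last 160 bases before the start are printed 5′ to 3′ along the gene's own strand for 5 genes that hold a G-box form there. They range from the most variable members in the counts (JAZ7 and JAZ8) to the steadiest (JAZ12). JAZ6 also held AACGTG in that stretch, ending 122 bases before the start, and is not printed. Capitals mark CACGTG and AACGTG or its reverse complement CACGTT. The windows are chr1:28150447-28150606 (minus strand) for JAZ2, chr3:6119547-6119706 (plus) for JAZ3, chr2:14572870-14573029 (plus) for JAZ7, chr1:10596192-10596351 (plus) for JAZ8 and chr5:7090544-7090703 (plus) for JAZ12.
JAZ2: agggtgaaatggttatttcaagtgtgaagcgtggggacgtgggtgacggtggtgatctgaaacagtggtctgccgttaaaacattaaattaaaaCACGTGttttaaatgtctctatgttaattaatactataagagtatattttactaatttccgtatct
JAZ3: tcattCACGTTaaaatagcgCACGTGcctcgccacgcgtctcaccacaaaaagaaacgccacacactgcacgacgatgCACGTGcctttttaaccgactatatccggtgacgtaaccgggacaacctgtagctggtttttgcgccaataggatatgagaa
JAZ7: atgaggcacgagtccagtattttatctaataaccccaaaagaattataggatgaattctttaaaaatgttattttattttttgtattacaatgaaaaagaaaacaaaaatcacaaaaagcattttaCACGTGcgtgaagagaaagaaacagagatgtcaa
JAZ8: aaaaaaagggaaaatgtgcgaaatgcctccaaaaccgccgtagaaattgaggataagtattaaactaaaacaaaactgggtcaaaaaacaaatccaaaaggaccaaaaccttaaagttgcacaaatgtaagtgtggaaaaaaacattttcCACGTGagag
JAZ12: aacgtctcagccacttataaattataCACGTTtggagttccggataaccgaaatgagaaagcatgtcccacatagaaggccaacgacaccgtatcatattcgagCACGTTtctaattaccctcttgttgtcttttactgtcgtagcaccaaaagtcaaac
The CACGTG of JAZ8 ended 5 bases before the start, that of JAZ7 ended 29 bases before it and that of JAZ2 ended 61 bases before it. JAZ3 held CACGTG at 2 places, ending 135 and 77 bases before the start.

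Per length of transcript, the 10 genes differed widely in level. Levels between genes are compared as RPKM, the CPM per kilobase of the gene's exons in the RefSeq annotation. JAZ9 had the highest level, 148 ± 66.9 RPKM (SD over 14 libraries), a mean of 33.2% of the summed JAZ level. JAZ6 followed with 90.0 ± 24.4 RPKM, and JAZ9 stood above it in 13 of 14 libraries. JAZ12 had 59.6 ± 6.40 RPKM, JAZ2 50.4 ± 18.3 RPKM and JAZ1 49.8 ± 22.5 RPKM. These 3 were not set apart by their spread, with JAZ12 above JAZ2 in 11 libraries and JAZ2 above JAZ1 in 8 of 14. JAZ7 had 12.8 ± 13.9 RPKM and JAZ3 11.7 ± 4.69 RPKM, each above the other in 7 libraries. JAZ8 with 4.85 ± 3.73 RPKM, JAZ10 with 4.62 ± 4.04 RPKM and JAZ5 with 4.03 ± 2.40 RPKM were the lowest, again with an order that changed from library to library. Between neighbours in this order of means, JAZ6 lay above JAZ12, JAZ1 above JAZ7 and JAZ3 above JAZ8 in all 14 libraries. The summed level of all 10 was between 319.7 and 510.6 RPKM in N2102362 and between 249.3 and 691.9 RPKM in N2102363, against 348.2 to 753.7 RPKM in Col-0 with estradiol and 254.8 to 529.1 RPKM in Col-0 with water, so the 4 groups overlapped.

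The libraries of a group differed widely in JAZ transcripts, and they differed for most members at once. In Col-0 estradiol replicate 3, all 10 genes were among the 5 highest of the 14 libraries, and the same held for N2102363 replicate 2. In N2102362 replicate 4, 8 of the 10 were among the 5 highest. At the low end, all 10 genes of Col-0 water replicate 1 were among the 5 lowest libraries, as were 9 of Col-0 water replicate 3, 9 of N2102363 replicate 3 and 8 of N2102362 replicate 3. On average over the members, the level in Col-0 estradiol replicate 3 lay 1.24 above the members' mean on the log2 scale and that in Col-0 water replicate 1 lay 1.18 below it. Each group held libraries at opposite ends, with 0 of 10 genes among the 5 highest and 8 among the 5 lowest in N2102362 replicate 3, 5 among the 5 lowest in Col-0 estradiol replicate 2 and 6 among the 5 highest in Col-0 water replicate 2. Fold changes of the JAZ genes over Col-0 with estradiol are given below with and without its replicate 3. That library was high for all 10 genes, and leaving it out raised the fold changes of all members but JAZ12. Lower values with another library left out are given beside them.

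**Figure D1:**
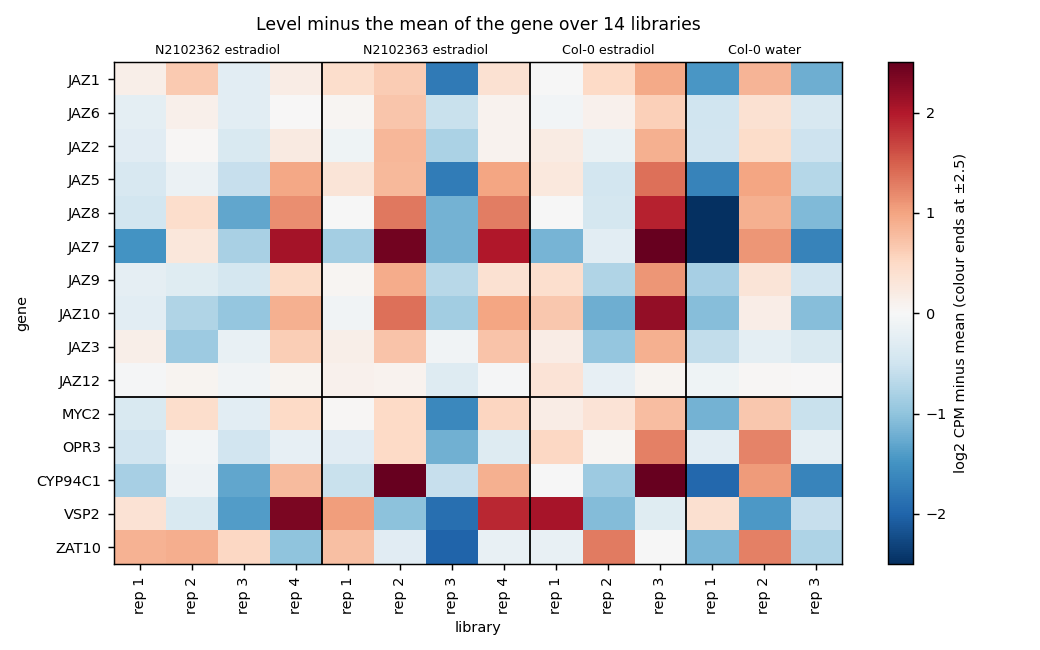
The level in each of the 14 libraries (columns, by group) is drawn as log2 CPM minus the mean of the gene over all libraries, for the 10 JAZ genes and, under the line, MYC2, OPR3, CYP94C1, VSP2 and ZAT10. Whole columns are red or blue for the JAZ genes, as in Col-0 estradiol replicate 3 and Col-0 water replicate 1, while JAZ12 is pale throughout.

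The JAZ genes differed widely among themselves in how much they varied between libraries of a group. JAZ7 had a pooled within-group SD of 1.81 on the log2 scale, larger than that of 99.96% of the 19666 genes tested, and its highest library lay 46.4-fold above its lowest. JAZ8 (SD 1.24), JAZ10 (1.08) and JAZ5 (1.05) came next, each above the SD of 99% of genes or more. JAZ1 had an SD of 0.89, JAZ9 0.66, JAZ3 0.60, JAZ2 0.52 and JAZ6 0.40, where the median gene had 0.22 and the 90th percentile was 0.53. JAZ12 alone lay below the median gene, with an SD of 0.17 and a highest library 1.57-fold above the lowest. Among the partners of the JAZ proteins, the receptor COI1 (SD 0.10) and the adaptor NINJA (0.069) were steady, and MYC2 (0.75) lay between JAZ9 and JAZ1.

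**Figure D2:**
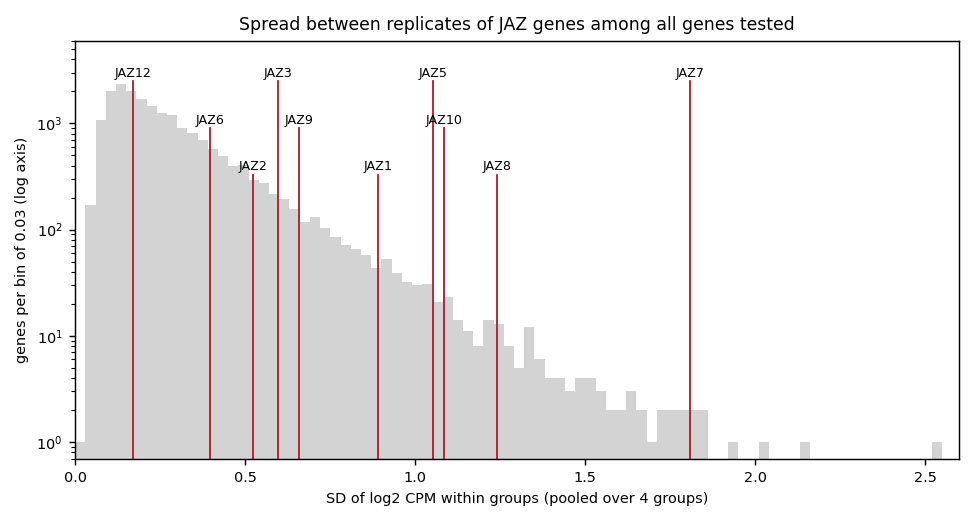
Histogram of the SD of log2 CPM within groups, pooled over the 4 groups, for all 19666 genes tested (y axis, genes per bin, log scale), with a line for each JAZ gene. JAZ7, JAZ8, JAZ10 and JAZ5 lie in the far right tail at 1.05 or more, and JAZ12 lies at 0.17, left of the median gene.

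JAZ5, JAZ6, JAZ7 and JAZ8 carry an EAR motif and can bind TPL without NINJA. JAZ7 and JAZ8 lack the usual degron for COI1 and resist hormone-driven turnover. JAZ7 (AT2G34600, plus strand of chromosome 2 from 14573080 to 14573856, TAIR10) had 1.99, 6.81, 3.18 and 23.5 CPM in N2102362 and 3.08, 29.9, 2.46 and 22.2 CPM in N2102363, against 2.48, 4.66 and 32.4 CPM in Col-0 with estradiol, in the order of replicates 1 to 4 or 1 to 3. It stood at 0.70, 12.0 and 1.75 CPM in Col-0 with water. Every group held at least 1 library above 12 CPM and at least 1 below 4 CPM, and the groups overlapped. The log2 fold change was -0.58 ± 1.16 (SE; 95% interval -3.16 to 2.0) in N2102362 and 0.13 ± 1.15 (-2.44 to 2.70) in N2102363. Without Col-0 estradiol replicate 3 these became 1.30 and 2.0. The lowest values with any 1 library left out were -1.71 and -0.51.

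JAZ8 (AT1G30135, plus strand of chromosome 1 from 10596492 to 10597239) behaved much like JAZ7 at a lower level. It had 2.09, 3.88, 1.17 and 6.38 CPM in N2102362 and 2.86, 7.14, 1.26 and 6.97 CPM in N2102363, against 2.85, 2.11 and 10.8 CPM in Col-0 with estradiol. In Col-0 with water it had 0.500, 5.32 and 1.32 CPM, so that replicates 2 and 4 of N2102363 and replicate 3 of Col-0 with estradiol were the 3 highest libraries. Its log2 fold change was -0.64 ± 0.81 in N2102362 and -0.21 ± 0.80 in N2102363, and these became 0.45 and 0.88 without Col-0 estradiol replicate 3. With another library left out, 1 at a time, they fell as low as -1.14 and -0.59. JAZ5 (AT1G17380, minus strand of chromosome 1 from 5955488 to 5957212) had 5.64, 6.72, 4.96 and 14.4 CPM in N2102362 and 9.29, 13, 2.22 and 14.8 CPM in N2102363, against 8.97, 5.42 and 19.3 CPM in Col-0 with estradiol. It had 2.35, 14.7 and 4.54 CPM in Col-0 with water, and no group was clear of another. In the mean of both lines JAZ5 had -0.35 ± 0.59, and 0.30 without Col-0 estradiol replicate 3. Its lowest value with any 1 library left out was -0.68. JAZ6 (AT1G72450, minus strand of chromosome 1 from 27274065 to 27276317), the closest relative of JAZ5 in the alignments made here, was far more abundant and less variable. JAZ6 had 156, 202, 154 and 187 CPM in N2102362 and 192, 298, 127 and 196 CPM in N2102363, against 176, 201 and 278 CPM in Col-0 with estradiol. It stood at 131, 243 and 141 CPM in Col-0 with water, and its highest library was replicate 2 of N2102363. JAZ6 had -0.21 ± 0.24 in the mean of both lines, and -0.0032 without Col-0 estradiol replicate 3. Without Col-0 estradiol replicate 1 it had -0.35.

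JAZ10 (AT5G13220, plus strand of chromosome 5 from 4218888 to 4220883) is known for splice forms that lack part of the degron and dampen the response, and counts per gene do not separate the 7 transcripts that RefSeq lists for it. It had 6.46, 4.60, 3.98 and 14.2 CPM in N2102362 and 7.27, 20.1, 4.25 and 15.4 CPM in N2102363, against 12.3, 3.32 and 35.4 CPM in Col-0 with estradiol. In Col-0 with water it stood at 3.70, 8.70 and 3.69 CPM. Replicates 2 and 3 of Col-0 with estradiol were the lowest and the highest of all 14 libraries, 10.7-fold apart. JAZ10 had the largest fold change of the 10 in most comparisons and was not called in any: -1.22 ± 0.71 (SE; 95% interval -2.79 to 0.35; adjusted p = 0.852) in N2102362 and -0.53 ± 0.70 (-2.08 to 1.02; adjusted p = 0.746) in N2102363. Without Col-0 estradiol replicate 3 these became -0.094 and 0.59. The lowest values with any 1 library left out were -1.76 and -1.02.

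JAZ1 (AT1G19180, plus strand of chromosome 1 from 6622094 to 6623620) and JAZ2 (AT1G74950, minus strand of chromosome 1 from 28148575 to 28150444) are close relatives, and JAZ2 is known for a role in guard cells. JAZ1 had 86.2, 123, 64.8 and 88.9 CPM in N2102362 and 106, 122, 23.1 and 102 CPM in N2102363, against 78.3, 111 and 150.3 CPM in Col-0 with estradiol. It had 28.4, 141 and 33.5 CPM in Col-0 with water, where replicate 2 stood above replicates 1 and 3. JAZ1 in N2102363 replicate 3 was the lowest of all libraries. JAZ2 had 53.5, 66.6, 50.6 and 76.8 CPM in N2102362 and 60.8, 116, 38.0 and 69.4 CPM in N2102363, against 75.9, 58.5 and 121 CPM in Col-0 with estradiol. In Col-0 with water JAZ2 had 46.8, 89.6 and 46.0 CPM. Both genes overlapped between all groups, with log2 fold changes of -0.34 ± 0.50 for JAZ1 and -0.36 ± 0.31 for JAZ2 in the mean of both lines. Without Col-0 estradiol replicate 3 these became -0.080 for JAZ1 and -0.020 for JAZ2. The lowest values with any 1 library left out were -0.54 and -0.57.

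JAZ3 (AT3G17860, plus strand of chromosome 3 from 6119767 to 6123019) is the gene in which the dominant jasmonate-insensitive allele jai3 lies, and JAZ9 (AT1G70700, plus strand of chromosome 1 from 26654768 to 26657064) is a related member often used to assay binding to COI1. JAZ9, the most abundant JAZ transcript, had 216, 203, 186 and 351 CPM in N2102362 and 259, 480.4, 156 and 329.6 CPM in N2102363, against 334, 150.1 and 541 CPM in Col-0 with estradiol. It had 142, 316 and 182 CPM in Col-0 with water. Col-0 with estradiol held both the highest library and a low one. JAZ3 had 32.9, 15.8, 26.3 and 45.3 CPM in N2102362 and 32.7, 48.5, 27.8 and 48.7 CPM in N2102363, against 33.9, 15.1 and 55.1 CPM in Col-0 with estradiol. JAZ3 in Col-0 with water was comparatively even at 19.4, 25.1 and 22.7 CPM. Its lowest libraries were replicate 2 of N2102362 and replicate 2 of Col-0 with estradiol. JAZ3 and JAZ7 were the 2 members with a log2 fold change above 0 in N2102363, 0.18 ± 0.39 for JAZ3. That value was 0.68 without Col-0 estradiol replicate 3 and -0.18 without its replicate 2, so sign and size turned on 1 control library. JAZ9 had -0.52 ± 0.44 in N2102362 and -0.16 ± 0.44 in N2102363, and without Col-0 estradiol replicate 3 it had -0.020 and 0.34. Without Col-0 estradiol replicate 2 JAZ9 had -0.87 and -0.51.

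JAZ12 (AT5G20900, plus strand of chromosome 5 from 7090704 to 7092539), whose protein is known to be held stable by the ubiquitin ligase KEG, was the steady member. It had 62.4, 67.1, 60.1 and 67.5 CPM in N2102362 and 68.8, 67.9, 51.4 and 63.2 CPM in N2102363, against 80.9, 55.5 and 67.1 CPM in Col-0 with estradiol. In Col-0 with water it had 59.8, 65.1 and 64.5 CPM. All 14 libraries fell within 51.4 and 80.9 CPM. Its log2 fold change was -0.078 ± 0.12 in N2102362 (95% interval -0.36 to 0.20) and -0.11 ± 0.12 in N2102363 (-0.39 to 0.17), the narrowest intervals of the 10 members, and without Col-0 estradiol replicate 3 it had -0.086 and -0.12. Without Col-0 estradiol replicate 2 JAZ12 had -0.20 and -0.24, and without replicate 1 it had 0.069 and 0.034. JAZ12 overlaps AT5G20910 on the opposite strand, and the library kit does not mark strand, so reads from the shared stretch cannot be assigned. The other members overlap no listed gene. For each transcript, only the best-scoring match elsewhere in the genome was kept. Among these, the highest identity in a listed gene was 87.0% (54 bases of JAZ9 in JAZ4). The match of JAZ10, 73 bases at 91.8%, lay outside listed genes. The identity of lower-scoring matches was not recorded.

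**Figure D3:**
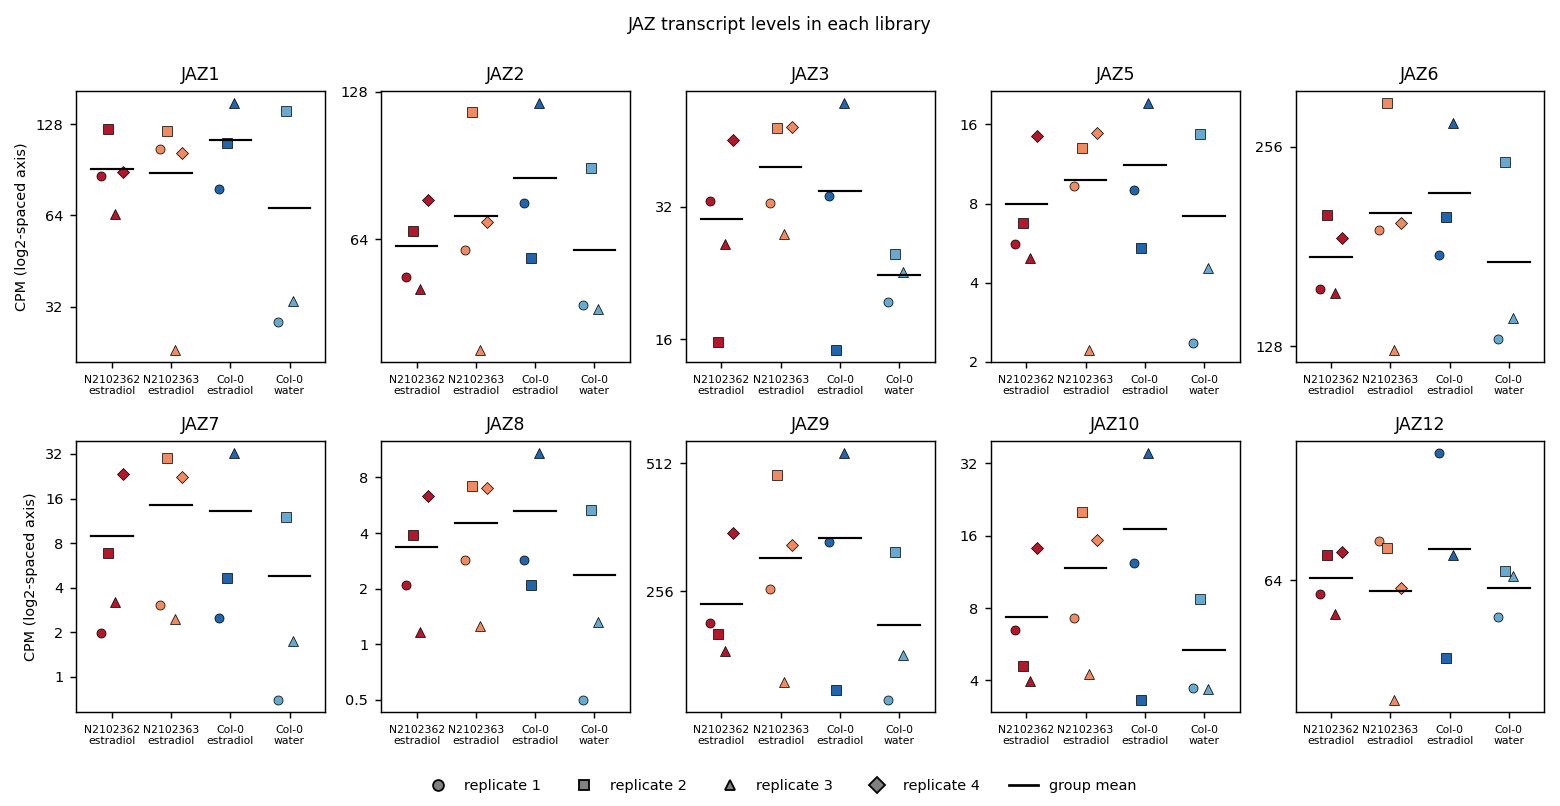
Level of each JAZ gene in each library in CPM (y axis, log2-spaced; each panel has its own range), by group, with the symbol giving the replicate number and a bar at the group mean. The groups overlap in all 10 panels, and replicate 3 of Col-0 with estradiol, the dark blue triangle, is the highest or near-highest point for every gene but JAZ12.

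In N2102362 against Col-0 with estradiol, all 10 JAZ genes had a log2 fold change below 0 and none was called. The median over the 10 was -0.48, against 0.002 over all genes tested, 49.6% of which were below 0. Adjusted p-values ran from 0.852 to 0.927, where 0.0305% of all genes tested were called. At an unadjusted p under 0.05 the count was also 0 of 10, where 4.65% of all genes passed, and DESeq2 called 0 of the 10 and 0.0559% of all genes. Of the 10, 0 had libraries that did not overlap between the groups, where 5.34% of all genes did. The values ran from -1.22 ± 0.71 for JAZ10 to -0.078 ± 0.12 for JAZ12. Leaving out Col-0 estradiol replicate 3 brought the median to -0.039, with JAZ3, JAZ5, JAZ7 and JAZ8 then above 0, and leaving out Col-0 estradiol replicate 2 brought it to -0.76.

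In N2102363 against Col-0 with estradiol, 8 of 10 were below 0 and 2 above, with a median of -0.17, against -0.005 over all genes tested, 50.8% of which were below 0. Here too 0 of 10 were called, with adjusted p from 0.706 to 0.966, where 0.0254% of all genes were called. The count at an unadjusted p under 0.05 was 0, where 11.2% of all genes passed, and DESeq2 called 0 of the 10 and 0.207% of all genes. No member had groups that did not overlap, where 11.2% of all genes did. The median turned to 0.39 without Col-0 estradiol replicate 3, to 0.061 without N2102363 replicate 3, and was -0.48 without N2102363 replicate 2 and -0.42 without Col-0 estradiol replicate 2. With the replicate number as a block, an alternative to the fit reported here, the median was -0.53 and 0 of 10 were called.

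The mean of the lines set against Col-0 with estradiol uses the same control libraries and gave a median of -0.34 over the 10 members, against -0.004 over all genes tested. All 10 were below 0, where 50.9% of all genes were, and 0 were called, where 0.0356% of all genes were (adjusted p from 0.587 to 0.991). The count at an unadjusted p under 0.05 was 0 of 10, where 9.33% of all genes passed, DESeq2 called 0 of 10 and 0.137% of all genes, and 0 of 10 had groups that did not overlap, where 2.42% of all genes did. Fold changes ran from -0.87 ± 0.60 for JAZ10 (95% interval -2.22 to 0.47) to -0.012 ± 0.35 for JAZ3 (-0.78 to 0.76). Without Col-0 estradiol replicate 3 JAZ10 had 0.25, JAZ3 had 0.49 and the median was 0.20, and without Col-0 estradiol replicate 2 it was -0.60. Set against Col-0 with water in place of Col-0 with estradiol, the median of the mean of both lines was 0.37.

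N2102363 against N2102362 gave a median of 0.33 over the members, against -0.008 over all genes tested. Of the 10, 8 were above 0, where 47.8% of all genes were, JAZ1 and JAZ12 lay below, and 0 were called, where 0.00508% of all genes were (1 gene; adjusted p = 0.9999 for the members). The fold changes with the largest size were 0.70 ± 1.08 for JAZ7 and 0.69 ± 0.67 for JAZ10, each close to or under its SE. No member passed an unadjusted p of 0.05, which 2.34% of all genes did, 0 were called by DESeq2, which called 0.0203% of all genes, and 0 had lines that did not overlap, where 2.06% of all genes did. The median was 0.064 without N2102363 replicate 2 and was 0.63 without N2102362 replicate 4 and 0.55 without N2102363 replicate 3. WRKY75 differed between the same lines by 1.57 ± 0.40 (SE), which was not called either.

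In Col-0, all 10 JAZ genes had a log2 fold change above 0 with estradiol against water, with a median of 0.66, against 0.007 over all genes tested, 52.1% of which were above 0. None was called and neither was any other gene, a share of 0% by edgeR and by DESeq2 (adjusted p = 0.9998 for all 10 members). The count at an unadjusted p under 0.05 was 0 of 10, where 1.58% of all genes passed. JAZ10 came nearest, with 1.66 ± 0.78 (SE; 95% interval -0.085 to 3.41; unadjusted p = 0.0540), followed by JAZ7 with 1.45 ± 1.29 and JAZ8 with 1.14 ± 0.89. No member had groups that did not overlap, where 4.56% of all genes did. The median was 0.12 without Col-0 estradiol replicate 3, 1.39 without Col-0 water replicate 2 and 0.40 without Col-0 water replicate 1. JAZ10 then had 0.53, 2.20 and 1.44. The comparisons of the lines with Col-0 and this one share the Col-0 estradiol libraries, so their values are not independent of each other.

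**Figure D4:**
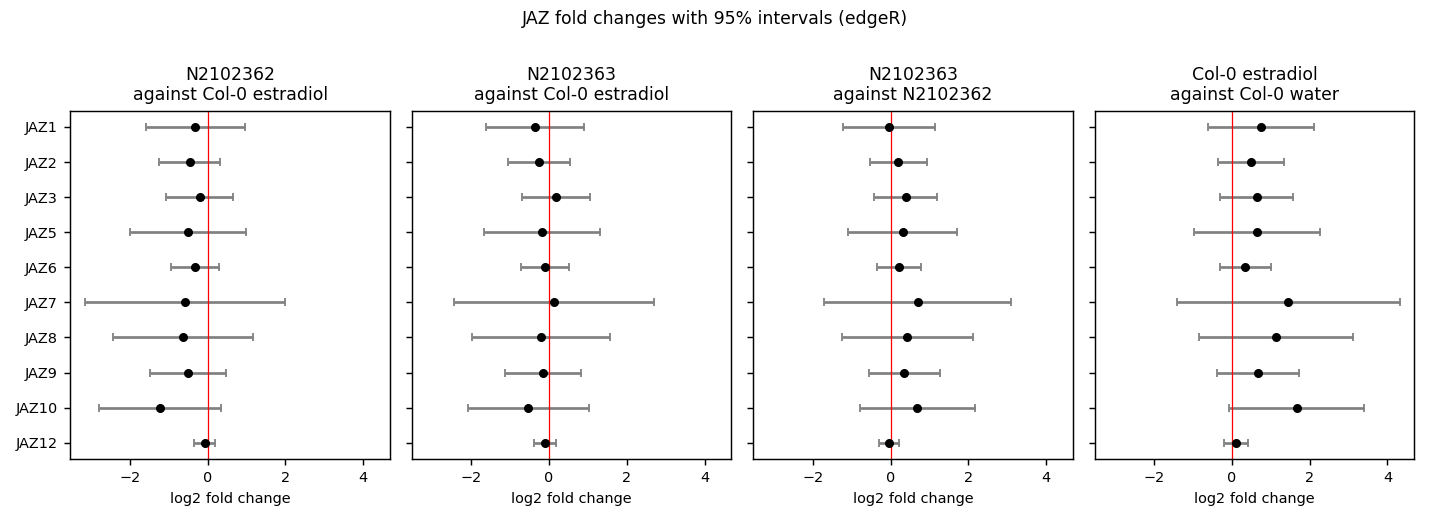
Log2 fold changes from the edgeR fit with their 95% intervals for the 10 JAZ genes in 4 comparisons. All intervals include 0, the widest are those of JAZ7 and the narrowest those of JAZ12.

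The genes around the JAZ proteins were followed by lists. Of 10 partners and targets (COI1, ASK1, NINJA, TPL, MYC2, MYC3, MYC4, JAM1, JAM2 and JAM3), 10 were below 0 in the mean of the lines over Col-0 with estradiol, 0 were called, 0 passed an unadjusted p of 0.05 and the median was -0.098. Of all genes tested in this comparison, 50.9% were below 0, 0.0356% were called and 9.33% passed an unadjusted p of 0.05. The largest was MYC2, the chief activator of the pathway, at -0.35 ± 0.42 (adjusted p = 0.743), followed by the F-box adaptor ASK1 at -0.16 ± 0.11. Of 14 synthesis genes 0 were called and 13 were below 0, with a median of -0.45. LOX3 and LOX4, lipoxygenases at the head of the pathway, had -0.95 ± 0.34 and -1.13 ± 0.61, OPR3, the reductase of the peroxisomal steps, -0.95 ± 0.36 and the cyclase AOC1 -0.74 ± 0.32. At an unadjusted p under 0.05, 4 of the 14 passed. Of the 14, 2 passed without Col-0 estradiol replicate 1, 6 without replicate 2 (median -0.62) and 1 without replicate 3. Without replicate 3, LOX4 had -0.095 and OPR3 -0.56. Of 9 turnover genes that passed the filter, of 10 listed, 0 were called and 9 were below 0 with a median of -0.95. They include CYP94B1 at -1.27 ± 0.65 and CYP94B3 at -1.20 ± 0.90, which oxidise the hormone. CYP94B1 and CYP94B3 were low in level, with medians of 0.46 and 1.54 CPM over the libraries and lowest values of 0.095 and 0 CPM. The list also includes the sulfotransferase ST2A at -1.03 ± 0.46 and the jasmonate oxidase JOX4 at -0.99 ± 0.72. At an unadjusted p under 0.05, 1 of the 9 passed, and 0, 6 and 2 did without Col-0 estradiol replicates 1, 2 and 3. The share of all genes that passed without these libraries is not given here. The turnover median was -1.06 without Col-0 estradiol replicate 3, -1.46 without replicate 2 and -0.14, with 4 of 9 above 0, without replicate 1. Of 4 output genes 0 were called, 0 passed an unadjusted p of 0.05 and 3 were below 0, with CORI3 at -0.88 ± 0.52 and TAT3 at 0.49 ± 0.77. VSP1 and VSP2, storage proteins used as late markers of the response, had -0.30 ± 0.89 and -0.046 ± 0.89. The output median of -0.17 became -0.55 without Col-0 estradiol replicate 3, -0.66 without replicate 2 and 1.59, with 4 of 4 above 0, without replicate 1. No gene of these lists was called without any 1 of these 3 libraries.

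In Col-0 with estradiol against water, the same lists again had no called gene. All 14 synthesis genes were above 0 (median 0.26), and so were all 9 turnover genes (median 1.56), where 52.1% of all genes were. All 4 output genes (median 0.97) were above 0 too, and 7 of the 10 partners and targets (median 0.052). The direction was not particular to jasmonate genes, since all 10 genes of touch and early stress were also above 0 (median 0.33). Of the 9 turnover genes, JOX3, JOX4, CYP94B1 and CYP94B3 passed an unadjusted p of 0.05, as 1.58% of all genes did. CYP94B1 and CYP94B3 had the low levels given above. The mean log2 CPM of the turnover genes was 5.32, 2.26 and 4.55 in replicates 1 to 3 of Col-0 with estradiol, against 2.71, 2.35 and 2.69 in Col-0 with water. Replicates 1 and 3 were high and replicate 2 was as low as the water libraries. For the JAZ genes the order differed, since replicate 3 alone was high for all 10 and replicate 1 was in the top 5 libraries for 5 of 10.

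After the group means were subtracted, the JAZ genes still varied together over the 14 libraries, which share their depth and scaling across genes. Pearson's r over the 45 pairs of members had a median of 0.81 and ran from 0.26 for JAZ1 with JAZ3 to 0.97 for JAZ9 with JAZ10. JAZ5 with JAZ8 had 0.95, JAZ2 with JAZ6 0.94 and JAZ1 with JAZ6 0.91. JAZ12 was the least alike, with a median of 0.49 over its 9 pairs. These correlations are given as descriptions, without a p. The mean of the 10 members is here the mean of their z-scores, the log2 CPM of each gene centred and divided by its SD over the libraries. The mean of the 10 members followed OPR3 with r = 0.92 (rho = 0.96; r = 0.90 without the 2 libraries farthest from the median), CYP94C1, an oxidase of the hormone, with r = 0.92 (rho = 0.93; r = 0.89 without the 2 libraries farthest from the median), JAM1, a repressor of the MYC2 type, with r = 0.89 (rho = 0.91; r = 0.81 without the 2 libraries farthest from the median) and MYC2 with r = 0.88 (rho = 0.84; r = 0.79 without the 2 libraries farthest from the median). COI1 went against it at r = -0.44 and JAR1, the enzyme that makes jasmonoyl-isoleucine, at r = -0.57, with r = -0.20 and r = -0.48 without the 2 farthest libraries. MYC3 and MYC4 had r of 0.060 and -0.17, VSP1 and VSP2 0.21 and 0.28, and WRKY75 0.18. OPR3, CYP94C1, JAM1 and MYC2 were among the highest of their lists. The median r was 0.68 for the synthesis, 0.36 for the turnover and 0.023 for the partner and target genes. Without the 2 farthest libraries for each gene these medians were 0.54, 0.26 and 0.075. The genes of touch and early stress had a median of 0.27 and a highest r of 0.87.

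**Figure D5:**
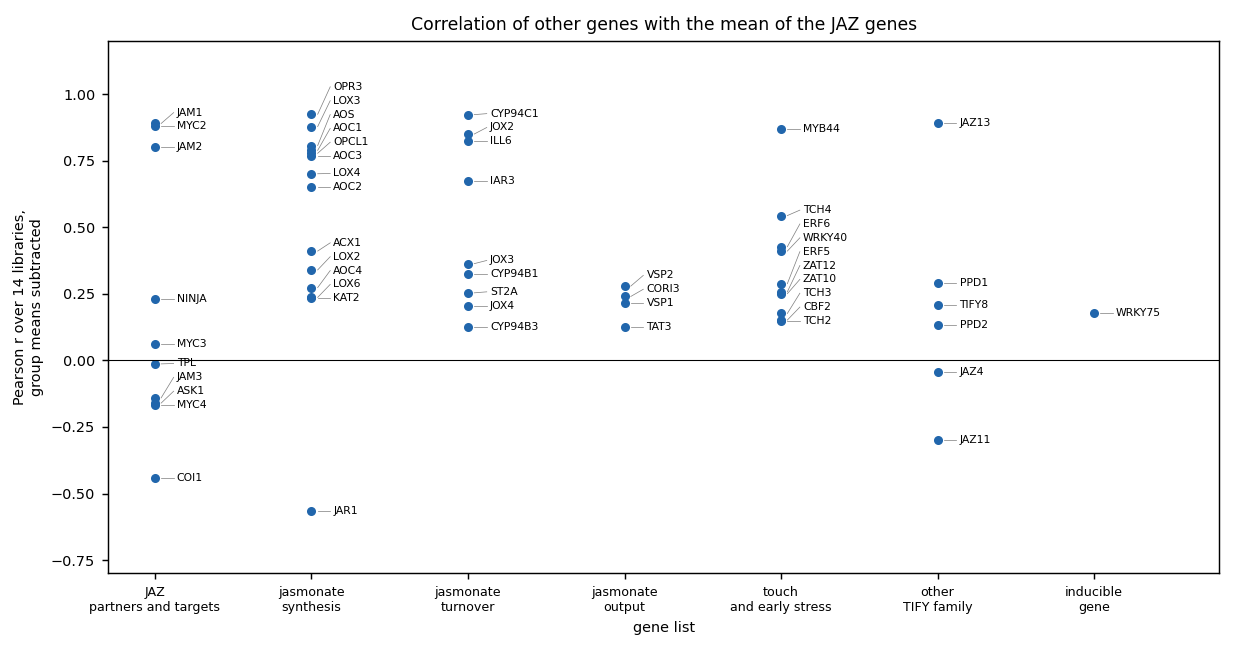
Pearson's r between the mean z-score of log2 CPM of the 10 JAZ genes and each gene of the other lists over 14 libraries (y axis), by list (x axis). Group means were subtracted first. OPR3, CYP94C1, JAM1, JAZ13, MYC2 and LOX3 are among the highest, the 4 output genes lie between 0.13 and 0.28, and JAR1 and COI1 lie lowest.

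Members differed in which pathway genes they followed. JAZ1 had r = 0.94 with MYC2 (rho = 0.86; r = 0.86 without the 2 farthest libraries), where JAZ3 had 0.38 and JAZ12 0.54 (0.29 and 0.32 without them). With 10 genes of touch and early stress, which respond to handling within minutes, JAZ1 had a median r of 0.72 and 5 of 10 above 0.7, among them WRKY40 (0.80), ERF5 (0.76) and ZAT10 (0.75). Without the 2 farthest libraries for each gene the median was 0.64 and 3 of 10 were above 0.7, with 0.72 for WRKY40, 0.66 for ERF5 and 0.73 for ZAT10. JAZ6 had a median of 0.49 with the same list, JAZ10 0.059 and JAZ3 -0.068, and without the 2 farthest libraries these were 0.42, -0.039 and -0.15. JAZ12 had a median r of 0.79 with the turnover genes, 7 of 9 above 0.7. The low-level CYP94B1 was among them, at 0.85 and at 0.66 without the 2 farthest libraries. Without the 2 farthest libraries for each gene the median of JAZ12 was 0.51 and 2 of 9 were above 0.7. The relation thus rested in large part on those libraries. No test of the difference between these correlations was made. The touch and early stress genes had a mean log2 CPM of 6.54, 6.22, 6.25 and 5.20 in N2102362 and 6.49, 5.87, 4.72 and 5.88 in N2102363, against 5.24, 6.61 and 6.24 in Col-0 with estradiol and 4.66, 6.72 and 5.01 in Col-0 with water. Their part in the JAZ values was not tested.

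JAZ1 and JAZ9, with r = 0.66 after group means were subtracted, differed in their ratio from library to library. The CPM of JAZ1 was 39.9%, 60.7%, 34.9% and 25.3% of that of JAZ9 in N2102362 and 40.9%, 25.3%, 14.7% and 31.1% in N2102363, against 23.4%, 73.7% and 27.8% in Col-0 with estradiol and 18.4% to 44.7% in Col-0 with water. The highest ratio, in Col-0 estradiol replicate 2, came with a JAZ9 level of 150.1 CPM, among the lowest, and a JAZ1 level of 111 CPM, among the higher ones. The groups overlapped in this ratio too. In that library the touch and early stress genes were high and the turnover genes low.

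Over 18100 genes with a mean of at least 1 CPM, likeness to the mean z-score of the JAZ genes was taken over the 14 libraries. As measured, AT4G32480 (r = 0.94), CYP94C1 (0.93), ATBETAFRUCT4 (0.92), AT5G52050 (0.91) and AT1G06620 (0.91) were the most alike. After group means were subtracted, AT4G32480 (0.94), ATBETAFRUCT4 (0.93), OPR3 (0.92), CYP94C1 (0.92) and AT1G61890 (0.91) came first. Of these, CYP94C1 ran from 4.00 to 99.3 CPM over the libraries and OPR3 from 23.2 to 127 CPM. CYP94C1 had 8.79, 14.4, 6.41 and 27.3 CPM in N2102362 and 10.7, 91.1, 10.5 and 29.1 CPM in N2102363, against 15.6, 8.33 and 99.3 CPM in Col-0 with estradiol, and 4.00, 32.7 and 4.97 CPM in Col-0 with water. Its 2 highest libraries, N2102363 replicate 2 and Col-0 estradiol replicate 3, were those in which all 10 JAZ genes were among the 5 highest.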

How the data were processed

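RNA was sequenced from whole rosettes with a kit that does not mark strand. The submitters' processing notes name TopHat2, HTSeq, SAMtools and FastQC and the genome build TAIR10. How HTSeq treated strand and reads with several matches is not given in the sources used here. Each deposited file holds raw counts per gene, which the authors had not normalized. File names mark the libraries of the lines as combined, which the sources used here do not explain.

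Groups were taken from sample titles. With edgeR 4.0.16 (R 4.3.3), the 14 libraries were fitted together after filterByExpr (minimum count 10, 19666 genes kept and 13936 removed) and TMM scaling. The robust quasi-likelihood test had only group in its design, which left 10 residual degrees of freedom. Genes were called at a Benjamini-Hochberg adjusted p under 0.05 over all genes tested. The 95% intervals were built from the SE and the t quantile for the 10 residual degrees of freedom. The test also draws on a prior estimate of spread over genes, so intervals and p-values need not match exactly. The SE was taken from the F statistic. CPM, RPKM and correlations were computed from the counts, with a prior count of 2 for log2 CPM in correlations and SDs. RPKM used union exon lengths of RefSeq TAIR10.1, whose gene models are often longer than those counted, so levels per length are approximate. The files count starts from 0, and 1 was added. DESeq2 1.42.0, RLE factors, no filter, left-out libraries, a replicate block, other reference groups and the compared groups alone were alternatives. The code was tested on simulated data.

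Same-numbered libraries of N2102363 and Col-0 with estradiol had correlated deviations of 0.17, 0.15 and 0.11 for replicates 1 to 3. Those of N2102363 and N2102362 had 0.22 to 0.73. The 2 Col-0 groups had 0.52, 0.28 and 0.063, and N2102362 and Col-0 with estradiol had 0.16, 0.64 and -0.13. With Col-0 water, N2102362 had 0.12, 0.31 and -0.20 and N2102363 had 0.10, 0.47 and 0.12. Unlike numbers could reach similar values. Replicate 4 of N2102362 had 0.58 with Col-0 water replicate 3, and replicate 4 of N2102363 had 0.50 with it. The fit reported above treated no libraries as pairs, and the replicate block was an alternative for every comparison. No 2 libraries of the same group were near copies. The named genes were all members, WRKY75, up to 4 genes per other list with the largest fold changes in the mean of both lines, and the 5 genes most like the members by each measure; others named were chosen after their values were seen. The members and lists were chosen with earlier results of these data known.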

Additional observations from a re-analysis of the deposited data

How the results depend on the processing

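The number of JAZ genes called was 0 of 10 in each of the 5 comparisons and remained 0 under every alternative run, 750 fold changes in all, of which 84 had the other sign than the fit reported above. RLE factors, DESeq2, no filter on low counts and the compared groups alone moved no median by more than 0.01. Leaving out 1 library at a time gave medians from -0.76 to -0.039 in N2102362, from -0.48 to 0.39 in N2102363 and from -0.60 to 0.20 in the mean of the lines over Col-0 with estradiol, from 0.064 to 0.63 between the lines and from 0.12 to 1.39 for estradiol in Col-0. Against Col-0 with water the median of N2102362 was 0.29, in place of -0.48 against Col-0 with estradiol, and against both Col-0 groups it was -0.11; that of N2102363 was 0.49 and 0.16, and the cause was not tested. Without the dated replicate 4 of both lines the medians were -0.67 for N2102362 and -0.23 for N2102363. With a replicate block they were -0.67, -0.53 and -0.56 for N2102362, N2102363 and the mean of both lines, 0.34 between the lines and 0.85 in Col-0, and no call changed. The mean log2 CPM of the members had an SD of 0.76 between libraries within groups, which limits what 3 or 4 pools can show; the lowest count of a member in a library was 10, for JAZ8 in Col-0 water replicate 1. The other gene lists without each Col-0 estradiol library, and their correlations without the 2 farthest libraries, were added after seeing the data. The touch and early stress median was -0.21, and 0.27 without Col-0 estradiol replicate 2.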

Other observations

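Among the relatives left off the list of members, JAZ13, a short JAZ protein without a working degron, showed the members' library pattern at a far lower level. It had 3, 6, 2 and 29 counts in N2102362 and 3, 31, 0 and 28 counts in N2102363, against 3, 4 and 44 counts in Col-0 with estradiol and 2, 9 and 1 counts in Col-0 with water. The 4 libraries with the most counts were replicate 4 of N2102362, replicates 2 and 4 of N2102363 and replicate 3 of Col-0 with estradiol. Its r with the mean of the members was 0.89 after group means were subtracted (0.86 without the 2 libraries farthest from the median). JAZ4 and JAZ11 did not share that pattern, with r of -0.045 and -0.30. JAZ11 was as steady as JAZ12, with a within-group SD of 0.17 on the log2 scale, and its highest library lay 1.47-fold above its lowest. Of JAZ4, JAZ11, JAZ13, PPD1, PPD2 and TIFY8, 0 were called in any of the 5 comparisons; in the mean of the lines over Col-0 with estradiol, JAZ13 had -0.48 ± 1.01, JAZ4 -0.24 ± 0.24 and JAZ11 -0.15 ± 0.12 (log2 fold change ± SE). Without Col-0 estradiol replicate 3 these became 1.78 for JAZ13, -0.44 for JAZ4 and -0.23 for JAZ11.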
